A study of Mus musculus with 20 samples.

Results

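The 39 cell cycle genes described here were taken by symbol from a table of 54446 genes measured in mouse tibia, and every one of the 39 was matched to 1 row. They comprise 15 S-phase genes, which act in DNA replication or in the entry into it, and 24 mitotic genes, which act in chromosome segregation and cell division. The libraries were made from pulverized tibiae of 3-month-old male C57BL/6J mice given dexamethasone (DEX, a synthetic glucocorticoid) at 1 mg/kg or water as vehicle for 5 days by subcutaneous injection. The study names this material as tibiae in its methods and as cortical bone with periosteum in its results. The text used here does not state whether marrow was removed. On days 1 and 3 by the labels, axial compression of -13 N was applied to the left tibia for 40 cycles, with a hold of 0.1 seconds and a pause of 10 seconds, while the right one was not loaded. The 4 groups of 5 libraries are vehicle unloaded, vehicle loaded, DEX unloaded and DEX loaded. The study's text describes more loading sessions than the labels and places collection within hours of a later last session, so the sources differ on when loading ended. Unloaded and loaded tibiae came from the same mice, and neither the labels nor the methods say which 2 tibiae belong to 1 mouse.

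A dividing cell copies its DNA in S phase and separates the copies in mitosis, and the genes for these phases are transcribed in separate waves. S-phase genes are known targets of E2F transcription factors, and mitotic genes are known targets of the MuvB complex with B-Myb (Mybl2) and FoxM1, which act through the cell cycle genes homology region (CHR). In a whole tibia most dividing cells are blood cell precursors of the marrow, with smaller numbers of dividing bone, cartilage and stromal cells. In such bulk samples, fewer cells of a type and less RNA per cell cannot be told apart.

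Total expected counts ran from 4641437 to 13032018 per library, and the 39 members had between 69 and 25515 counts in any 1 library, so each was measured in all 20. Levels are CPM, the counts scaled to a common library total, after TMM scaling. Unloaded DEX replicate 4 was left out of every test and mean below, since the study removed a DEX library of that number and its plots of expression hold a point fewer for unloaded than for loaded DEX tibiae. The sources used here do not state which tibia was meant. The other library numbered 4, of the loaded DEX group, had the lowest total and the highest summed level of olfactory and vomeronasal receptor genes, which bone is not known to express (6294 CPM, against 255.9 to 2993 CPM in the other 19 libraries). For comparisons of loaded DEX tibiae, members' medians and calls are given with and without it, and those of other lists in part. Values in every library are listed below as replicates 1, 2, 4, 5 and the library with no matching replicate number for both vehicle groups, as replicates 1, 2, 3 and 5 for DEX unloaded, and as replicates 1 to 5 for DEX loaded.

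Promoter windows of 300 bases (250 before and 50 after the RefSeq transcription start, GRCm38.p6) were found for 32 of the 39 genes, 13 S-phase and 19 mitotic. These were searched on both strands for E2F sites (TTTCGCGC or TTTGGCGC), for CHR elements (TTTGAA or TTCGAA) and for CCAAT boxes (CCAAT). The E2F letters were present for 5 of 13 S-phase genes (Cdt1, Mcm3, Mcm5, Mcm6 and Mcm7), for 1 of 19 mitotic genes (Cdk1) and for 0.929% of 27025 genes. The CHR letters were present for 14 of 19 mitotic genes, 3 of 13 S-phase genes (E2f8, Mcm2 and Mcm7) and 21.7% of all genes. CCAAT was present for 16 of 19 mitotic genes, 8 of 13 S-phase genes and 41.1% of all genes. Matches of 2 different motifs shared a base in 1 member window, that of Mcm7. Windows are shown 5′ to 3′ on the strand of the gene, with the motif letters in capitals, for the 3 mitotic genes whose vehicle and DEX values did not overlap in unloaded tibiae (Aurka, Plk1 and Ccnb1) and for the 2 S-phase genes with the smallest p in the test of treatment by loading (Cdt1 and Tyms).
Aurka: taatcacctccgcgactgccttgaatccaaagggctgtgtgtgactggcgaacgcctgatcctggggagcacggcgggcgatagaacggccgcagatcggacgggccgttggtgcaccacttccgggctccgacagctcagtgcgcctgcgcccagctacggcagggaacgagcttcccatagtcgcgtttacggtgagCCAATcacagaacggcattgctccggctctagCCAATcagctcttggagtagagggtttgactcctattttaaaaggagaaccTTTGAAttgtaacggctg
Plk1: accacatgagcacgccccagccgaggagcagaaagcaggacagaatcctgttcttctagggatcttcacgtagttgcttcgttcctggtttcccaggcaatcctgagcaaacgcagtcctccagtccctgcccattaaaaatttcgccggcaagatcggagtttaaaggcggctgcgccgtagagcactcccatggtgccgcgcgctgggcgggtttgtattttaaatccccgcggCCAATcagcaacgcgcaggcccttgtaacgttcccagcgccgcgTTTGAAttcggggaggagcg
Ccnb1: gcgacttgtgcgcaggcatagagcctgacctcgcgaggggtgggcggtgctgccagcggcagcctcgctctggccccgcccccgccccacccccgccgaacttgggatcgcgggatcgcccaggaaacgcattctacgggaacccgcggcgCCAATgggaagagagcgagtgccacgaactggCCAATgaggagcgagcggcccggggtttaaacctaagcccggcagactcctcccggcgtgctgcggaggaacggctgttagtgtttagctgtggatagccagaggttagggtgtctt
Cdt1: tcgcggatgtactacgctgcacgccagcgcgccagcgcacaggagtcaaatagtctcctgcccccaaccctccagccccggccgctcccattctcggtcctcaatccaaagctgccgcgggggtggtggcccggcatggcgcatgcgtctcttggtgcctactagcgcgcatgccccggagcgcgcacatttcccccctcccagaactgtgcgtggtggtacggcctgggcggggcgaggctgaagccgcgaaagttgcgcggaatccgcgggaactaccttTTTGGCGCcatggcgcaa
Tyms: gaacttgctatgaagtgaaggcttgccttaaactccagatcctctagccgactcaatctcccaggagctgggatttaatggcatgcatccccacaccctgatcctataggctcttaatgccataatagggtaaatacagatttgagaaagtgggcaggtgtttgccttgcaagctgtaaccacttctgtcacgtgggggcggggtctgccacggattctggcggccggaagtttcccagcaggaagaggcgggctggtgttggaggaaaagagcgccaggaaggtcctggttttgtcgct
The Aurka window lies on the minus strand at chr2:172370521-172370820, and it holds CCAAT 51 and 19 bases upstream of the start and TTTGAA 32 bases downstream of it. The Plk1 window, on the plus strand at chr7:122159185-122159484, holds CCAAT 14 bases upstream and TTTGAA 30 bases downstream. The Ccnb1 window, on the minus strand at chr13:100786437-100786736, holds CCAAT 99 and 67 bases upstream and no CHR letters. The Cdt1 window, on the plus strand at chr8:122567765-122568064, holds TTTGGCGC 32 bases downstream, and the Tyms window, on the minus strand at chr5:30073576-30073875, holds none of the letters searched.

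Set against exon length, Mki67, which encodes the Ki-67 proliferation antigen that coats mitotic chromosomes, had the highest level of the 39 genes in each of the 4 groups. Its level in vehicle unloaded tibiae was 192.8 ± 32.5 CPM per kb (SD, n = 5). Next came Top2a, the topoisomerase that untangles chromosomes, at 43.3 ± 7.01 CPM per kb, and Rrm2, the ribonucleotide reductase subunit that supplies deoxynucleotides, at 42.4 ± 5.16 CPM per kb. Top2a and Rrm2 did not differ beyond their spread. Further down the order, neighbours were apart by more than the SD of either only between Rrm2 and Pcna (33.1 ± 5.03 CPM per kb), between Mcm2 (16.2 ± 2.07) and Plk1 (13.8 ± 1.94), and between Mybl2 (6.74 ± 1.33) and Bub1. At the low end were Tyms, which makes thymidylate, at 4.4 ± 0.566 CPM per kb, the transcription factor E2f1 at 4.58 ± 0.967 and the checkpoint kinase Bub1 at 4.63 ± 0.63 CPM per kb.

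**Figure D1:**
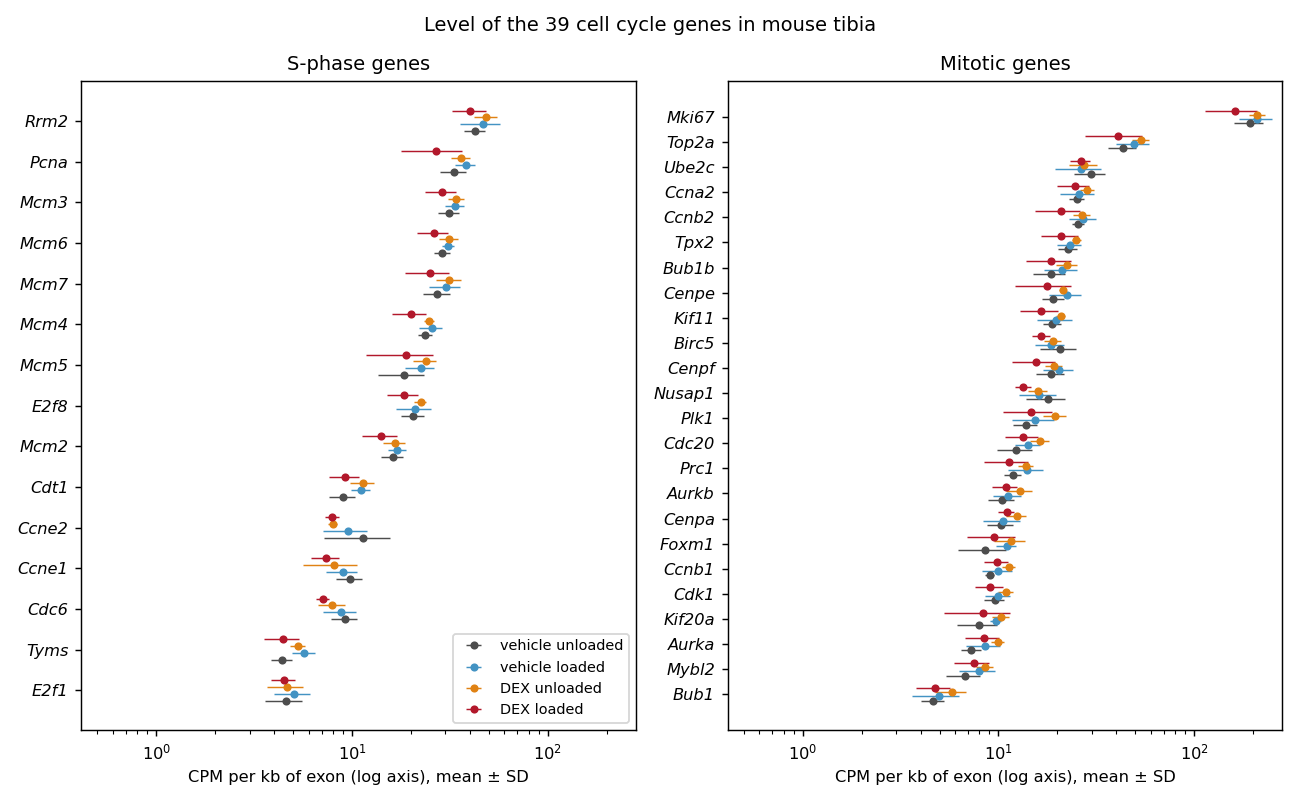
Level per kb of exon of each S-phase gene (left) and mitotic gene (right) on a log axis, as the mean ± SD of 5 libraries (4 for DEX unloaded) for each group. Genes run from 4.4 CPM per kb for Tyms to 192.8 CPM per kb for Mki67 in vehicle unloaded tibiae.

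Among the genes that open S phase, E2f1, an activator of S-phase genes, was measured at 11.4, 13, 16.9, 12.5 and 18.5 CPM in vehicle unloaded and at 12.1, 20.6, 15.1, 13.8 and 17.9 CPM in vehicle loaded tibiae. The DEX values were 11.6, 18, 16.6 and 12.5 CPM unloaded and 15.6, 13.9, 15.2, 10.9 and 15.2 CPM loaded. The 4 groups of E2f1 values overlapped throughout. Ccne1, the cyclin E that partners CDK2 at the start of S phase, was at 27.8, 29.4, 21.8, 29.4 and 21.9 CPM in vehicle unloaded and 18.9, 27.1, 23.0, 29.6 and 21.0 CPM in vehicle loaded tibiae. Its values were 27.9, 25.9, 19.5 and 13.3 CPM in DEX unloaded and 24.4, 20.6, 19.4, 15.9 and 17.7 CPM in DEX loaded tibiae. The Ccne1 values of the DEX groups reached lower than those of the vehicle groups and overlapped them. The other cyclin E gene, Ccne2, ran from 27.5 to 63.6 CPM in vehicle unloaded tibiae with a coefficient of variation of 37.3%, which was 21.9% without replicate 2. In DEX unloaded tibiae it lay between 26.6 and 30.0 CPM (5.8%).

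Mcm2, a subunit of the MCM2-7 replicative helicase, was at 116.5, 109.9, 103.2, 98.9 and 135.6 CPM in vehicle unloaded and 102.1, 130.1, 131.6, 111.0 and 117.1 CPM in vehicle loaded tibiae. In DEX unloaded tibiae it was at 101.8, 135.4, 113.9 and 107.8 CPM, and in DEX loaded tibiae at 96.2, 104.5, 106.8, 65.4 and 116.6 CPM. Loaded DEX replicate 4 stood alone at the low end of the Mcm2 values. The other 5 helicase subunits had group means between 71.8 ± 14.3 CPM (Mcm4 in DEX loaded) and 145.7 ± 16.3 CPM (Mcm6 in DEX unloaded, SD). Loaded DEX replicate 4 was also the lowest of the 20 libraries for each of them.

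Pcna, the sliding clamp of the replicative polymerases, was at 86.3, 59.4, 78.5, 81.9 and 90.7 CPM in vehicle unloaded and 73.8, 96.5, 103.1, 91.7 and 93.0 CPM in vehicle loaded tibiae. It was at 72.5, 91.1, 90.7 and 91.9 CPM in DEX unloaded and at 63.5, 80.8, 76.9, 26.6 and 76.1 CPM in DEX loaded tibiae. Replicate 4 of the last group held less than any other library, and all 5 values of that group lay below the 4 highest of vehicle loaded tibiae. Rrm2 was at 119.3, 121.4, 110.5, 98.6 and 137.3 CPM in vehicle unloaded, at 90.3, 168.9, 143.0, 113.4 and 128.1 CPM in vehicle loaded, at 116.8, 156.1, 140.9 and 123.4 CPM in DEX unloaded, and at 113.9, 129.7, 121.2, 73.9 and 120.3 CPM in DEX loaded tibiae. The 2 lowest Rrm2 values came from loaded DEX replicate 4 and loaded vehicle replicate 1. Tyms was at 24.9, 28.7, 26.5, 22.4 and 31.4 CPM in vehicle unloaded, at 26.6, 36.7, 37.4, 37.1 and 35.4 CPM in vehicle loaded, at 29.2, 35.8, 32.2 and 31.4 CPM in DEX unloaded and at 29.7, 26.0, 25.4, 19.7 and 35.0 CPM in DEX loaded tibiae. Apart from loaded vehicle replicate 1, the vehicle loaded values of Tyms lay above each vehicle unloaded value.

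Of the mitotic genes, Mki67 was at 2099, 1444, 1798, 2068 and 2289 CPM in vehicle unloaded and 1451, 2492, 2363, 2161 and 2066 CPM in vehicle loaded tibiae. Its DEX values were 2179, 2357, 2024 and 1894 CPM unloaded and 1629, 1876, 1850, 787.2 and 1960 CPM loaded. Top2a was at 385.2, 302.2, 412.3, 376.6 and 477.0 CPM in vehicle unloaded, at 327.1, 528.8, 520.3, 404.7 and 442.3 CPM in vehicle loaded, at 412.8, 496.8, 522.9 and 500.7 CPM in DEX unloaded and at 315.5, 389.2, 443.1, 194.5 and 506.1 CPM in DEX loaded tibiae. For both genes the DEX loaded group had the widest spread, and replicate 4 set it.

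Ccnb1, the cyclin B that activates CDK1 to start mitosis, was at 38.8, 40.6, 35.9, 35.8 and 39.3 CPM in vehicle unloaded and 31.9, 51.6, 46.9, 41.1 and 39.8 CPM in vehicle loaded tibiae. In DEX unloaded tibiae it was at 43.3, 46.7, 52.4 and 48.4 CPM, and in DEX loaded tibiae at 42.5, 38.6, 44.9, 32.9 and 48.3 CPM. All 4 DEX unloaded values lay above all 5 vehicle unloaded values. Foxm1, the transcription factor of mitotic genes, was at 46.5, 34, 56.3, 41.3 and 68.4 CPM in vehicle unloaded, at 56.7, 69.9, 69.5, 53.9 and 66.5 CPM in vehicle loaded, at 53.4, 61.1, 80.7 and 71.6 CPM in DEX unloaded and at 42.3, 55.4, 61.1, 39.5 and 76.2 CPM in DEX loaded tibiae. Birc5, which encodes survivin of the chromosomal passenger complex, was at 71.9, 92.9, 55.2, 60.9 and 69.5 CPM in vehicle unloaded, at 46.9, 71.7, 69.2, 68.9 and 58.6 CPM in vehicle loaded, at 64.3, 71.3, 66.3 and 56.1 CPM in DEX unloaded and at 62.4, 50.3, 51.3, 56.2 and 62.3 CPM in DEX loaded tibiae. Groups overlapped for Foxm1 and Birc5, and Birc5 was 1 of the few members for which loaded DEX replicate 4 was not the lowest of its group.

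Across the list, 1 library of each loaded group lay below the rest. Loaded DEX replicate 4 was the lowest of its group for 34 of 39 genes and the lowest of all 20 libraries for 28, with 12 of 15 S-phase and 16 of 24 mitotic genes among them. Loaded vehicle replicate 1 was likewise the lowest of its group for 34 of 39 genes and the lowest of all 20 for 7. The mean log2 CPM of the 24 mitotic genes was 5.54 in the former and 5.87 in the latter, against 6.01 to 6.49 in the other 18 libraries. Loaded vehicle replicate 1 was not shallow, with a total of 12935221, and had 308.1 CPM of the receptor genes named above. The part of depth or of this background in the low values was not tested.

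**Figure D2:**
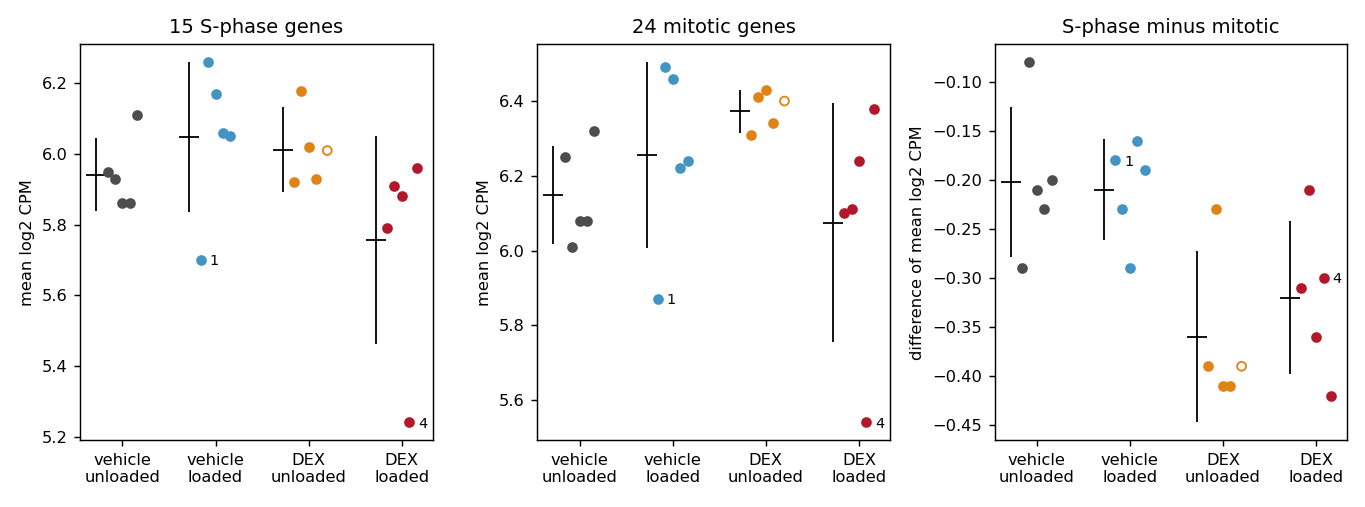
Mean log2 CPM of the 15 S-phase genes, of the 24 mitotic genes and their difference in each library, with the group mean ± SD in black beside the points (the open circle is unloaded DEX replicate 4, not in the mean). Loaded vehicle replicate 1 and loaded DEX replicate 4, marked by their numbers, lie lowest of their groups in the first 2 panels, at 5.70 and 5.24 for the S-phase genes, but not in the third.

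DEX unloaded was compared with vehicle unloaded tibiae to ask how DEX without loading altered these genes. A pair of kinases of mitotic entry passed the test in edgeR's quasi-likelihood fit over all genes with Benjamini-Hochberg adjustment, and both were higher under DEX. Aurka, the kinase that matures centrosomes and builds the spindle, was at 26.2, 23.9, 27.4 and 23.3 CPM with DEX and at 20, 16, 17.3, 17.5 and 21.2 CPM with vehicle. The groups did not overlap, and Aurka rose by a log2 fold change of 0.47 (SE 0.123, adjusted p = 0.0414). Plk1, the polo-like kinase of mitotic entry and exit, was at 36.5, 40.0, 46.6 and 48.7 CPM with DEX and at 28.4, 26.9, 35.0, 26.5 and 35.0 CPM with vehicle. It rose by 0.52 on the log2 scale (SE 0.144), again with no overlap, at an adjusted p of 0.0498.

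Thus 2 of 39 members were called, both higher, or 5.13%, where 6.84% of 19738 genes were called in this comparison. The members' share was therefore near that of all genes. Vehicle and DEX values did not overlap for 3 members (7.69%), Aurka, Plk1 and Ccnb1, against 10.8% of all genes tested. Ccnb1 had a log2 fold change of 0.34 (SE 0.115, adjusted p = 0.0947). The calls depended on single libraries and on the model. Both were lost without vehicle replicate 1, 2 or 5 (5.31%, 5.41% and 2.72% of all genes called) or without DEX replicate 2, 3 or 5 (3.98%, 0.633% and 5.24%). Plk1 alone was called without vehicle replicate 4 (4.26%) or DEX replicate 1 (6.41%), and both were called without the unnumbered vehicle library (9.6%). Both were also lost with no filter except 1 count and in a model of all 4 groups, where 3.74% and 6.75% of all genes were called. With the summed receptor gene level as a covariate 10 members were called, 9 higher and Ccne2 lower, beside 13.5% of all genes. With unloaded DEX replicate 4 put back, Aurka (adjusted p = 0.0146), Plk1 (0.0115) and Ccnb1 (0.0239) were called, in a fit that called 15.2% of all genes.

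In direction, 21 of 24 mitotic and 12 of 15 S-phase genes had a positive log2 fold change under DEX in unloaded tibiae, with medians of 0.26 and 0.14 beside 0.03 over all genes tested. Without 1 library the mitotic median lay between 0.20 and 0.31, and the S-phase median was 0.08 without DEX replicate 5 or vehicle replicate 4. The median over all 39, 0.20, was 0.12 without DEX replicate 2. At an unadjusted p under 0.05 stood 9 members (23.1%), beside 24.6% of all genes, and all 9 were higher: Aurka, Plk1, Ccnb1, Cdc20, Cdt1, Mybl2, Foxm1, Aurkb and Kif20a. By role, the 3 mitotic kinases lay between 0.34 and 0.52, the 2 mitotic transcription factors at 0.35 and 0.46, and the 2 spindle checkpoint kinases at 0.31 and 0.34. The exceptions were Ccne2 (-0.51), Ccne1 (-0.27), the licensing factor Cdc6 (-0.21), the spindle protein Nusap1 (-0.16), Birc5 (-0.11) and the ubiquitin-conjugating enzyme Ube2c (-0.11), none of which passed the test. Vehicle unloaded replicate 2 held the highest value of its group for several of these 6 genes, at 63.6 CPM of Ccne2, 92.9 CPM of Birc5 and 94.1 CPM of Nusap1, while it held the lowest Mki67, Top2a and Foxm1.

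**Figure D3:**
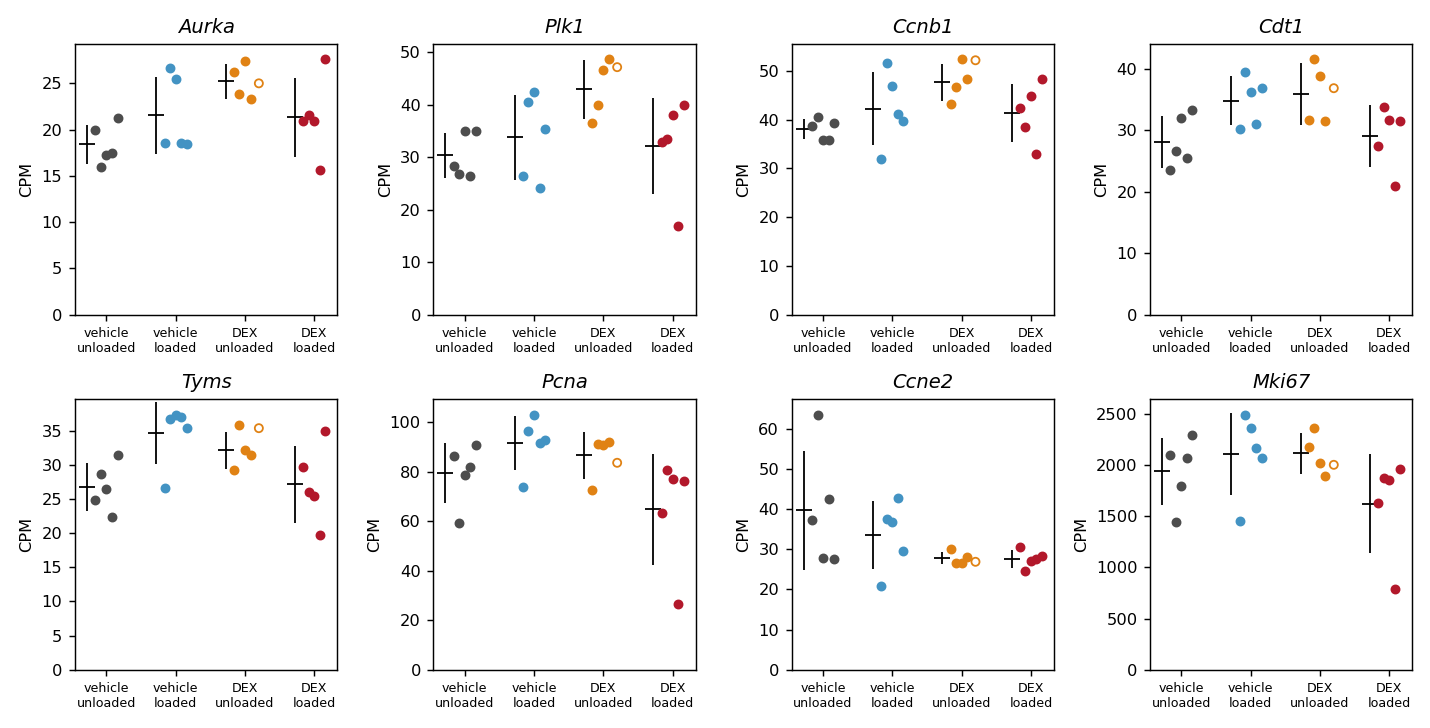
CPM of 8 members in each library from a zero baseline, with the group mean ± SD in black beside the points and unloaded DEX replicate 4 as an open circle outside the mean. For Aurka, Plk1 and Ccnb1 the DEX unloaded points lie above all vehicle unloaded points, and the lowest points of Pcna (26.6 CPM) and Mki67 (787.2 CPM) belong to loaded DEX replicate 4.

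In loaded tibiae the same treatment comparison called 21.3% of 19780 genes and 0 of 39 members. No member reached an unadjusted p under 0.05, and DESeq2's Wald test, which called 28.6% of all genes, also called 0. DEX and vehicle values overlapped for all 39, where 16.5% of all genes tested did not overlap. The members nearest to the threshold were all S-phase genes and all lower with DEX. Tyms had a log2 fold change of -0.31 (SE 0.154, adjusted p = 0.164), Pcna of -0.46 (SE 0.232, adjusted p = 0.166) and Mcm4 of -0.31 (SE 0.158, adjusted p = 0.173). The Pcna value was -0.27 without loaded DEX replicate 4 (adjusted p = 0.128) and -0.0005 with the summed receptor gene level as a covariate (adjusted p = 1.0). By the same alternatives the Mcm4 value was -0.20 and -0.12, and that of Tyms -0.22 and -0.25. Mcm4 was at 73.9, 78.4, 80.6, 46.6 and 79.5 CPM with DEX and at 71.7, 102.0, 102.1, 91.7 and 89.7 CPM with vehicle, so that only the vehicle replicate 1 fell within the DEX values.

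All 15 S-phase genes read lower with DEX in loaded tibiae, with a median log2 fold change of -0.23, and 19 of 24 mitotic genes did, with a median of -0.11, beside 0.00 over all genes. These medians moved with single libraries and with the receptor gene covariate. The summed receptor gene level ran from 255.9 to 903.6 CPM in vehicle loaded and from 1067 to 6294 CPM in DEX loaded tibiae, without overlap. In loaded tibiae this covariate cannot be told apart from DEX, so values that shrink with it, above and below, cannot be assigned to either. With the covariate the S-phase and mitotic medians were -0.00, 8 of 15 negative, and 0.06, 8 of 24 negative, with 0 members called. Without loaded DEX replicate 4 they were -0.13 for the S-phase genes, still 15 of 15 negative, and -0.02 for the mitotic genes, 13 of 24 negative, with 0 called. Without loaded vehicle replicate 1 they were -0.32 and -0.23 with all 39 genes negative, and Cdc6 alone was called (log2 fold change -0.41, adjusted p = 0.0472), beside 13.8% of all genes. With all 4 groups in the same model, Mcm4 (adjusted p = 0.0395) and Tyms (0.0439) were called lower, at 35.7% of all genes. The SEs of the 39 log2 fold changes ran from 0.134 to 0.255 in this comparison and from 0.11 to 0.234 in unloaded tibiae.

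The question of whether loading altered cell cycle genes was asked within each treatment. In vehicle-treated mice 0 of 39 members were called, as were 0 of 17982 genes (0.0%) in the same fit. At an unadjusted p under 0.05 stood 2 members and 1773 genes, and DESeq2 called 0 members and 141 genes. The 2 members were Tyms, with a log2 fold change of 0.34 (SE 0.127, adjusted p = 0.445), and Cdt1, which loads the MCM helicase at origins, with 0.27 (SE 0.115, adjusted p = 0.48). Cdt1 was at 30.2, 39.4, 36.2, 31.0 and 36.9 CPM loaded and at 23.5, 26.6, 31.9, 25.4 and 33.2 CPM unloaded. Foxm1 followed with 0.33 (SE 0.155, adjusted p = 0.506). No member was free of overlap between the groups, against 1.33% of all genes. The signs were positive for 33 of 39 genes, with a median of 0.09 over the members and of -0.00 over all genes. The negative ones were Ccne2 (-0.29), Ube2c (-0.20), Birc5 (-0.19), Nusap1 (-0.19), Ccne1 (-0.16) and Cdc6 (-0.11), whose values under DEX in unloaded tibiae are given above, and the 2 comparisons share the vehicle unloaded libraries. The members' median was 0.20 without loaded vehicle replicate 1, 0.04 with 27 of 39 positive without replicate 2 of that group, and 0.05 with 26 of 39 positive without its replicate 4. Of 17 marker lists of other cells, 9 had a median above 0 and 7 below 0 in this comparison, with 0 genes called. The medians were 1.74 for chondrocyte genes (9 of 10 above 0), 0.62 for osteoclast genes (6 of 7) and 0.26 for macrophage genes (8 of 8), and -1.15 for skeletal muscle genes (0 of 10). The part of these cells in the members' values was not tested.

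In DEX-treated mice loading called 0 of 39 members and 0 of 22541 genes (0.0%). No member reached an unadjusted p under 0.05, as 958 genes did, and DESeq2 called 0 members and 0 genes. All 39 log2 fold changes were negative, from -0.43 to -0.04, with medians of -0.28 for the S-phase and -0.30 for the mitotic genes beside 0.02 over all genes. The smallest p belonged to Cdk1, the kinase partner of cyclin B, with -0.30 (SE 0.157, adjusted p = 0.733). It was at 55.6, 36.8, 45.7, 39.4 and 45.9 CPM loaded and at 60.7, 51.3, 53 and 51.0 CPM unloaded, which overlap through replicate 1 of the loaded group. Nusap1 had -0.27 (SE 0.149) and Plk1 -0.43 (SE 0.239), each with an adjusted p of 0.733. The Plk1 value was -0.25 without loaded DEX replicate 4 and -0.18 with the receptor gene covariate, where those of Cdk1 were -0.23 and -0.31 and those of Nusap1 -0.22 and -0.25. Mcm4 was the 1 member (2.56%) whose groups did not overlap, at 46.6 to 80.6 CPM loaded and 81.8 to 93.9 CPM unloaded, beside 1.25% of all genes. Leaving out loaded DEX replicate 4 moved the median over the members from -0.28 to -0.15, with 37 of 39 still negative and 0 called. With the summed receptor gene level as a covariate the median was -0.12 and 38 of 39 were negative. The members were not alone in this direction, as 14 of the 17 marker lists also had a median below 0, with 0 genes called. The medians were -0.28 for erythroid genes (12 of 12 below 0), -0.30 for neutrophil progenitor genes (8 of 8), -0.27 for macrophage genes (8 of 8) and -0.73 for osteoblast genes (10 of 10), and without loaded DEX replicate 4 they were -0.13, -0.16, -0.14 and -0.55. Skeletal muscle genes had a median of 1.02, with 9 of 10 above 0. The part of these cells in the members' values was not tested.

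**Figure D4:**
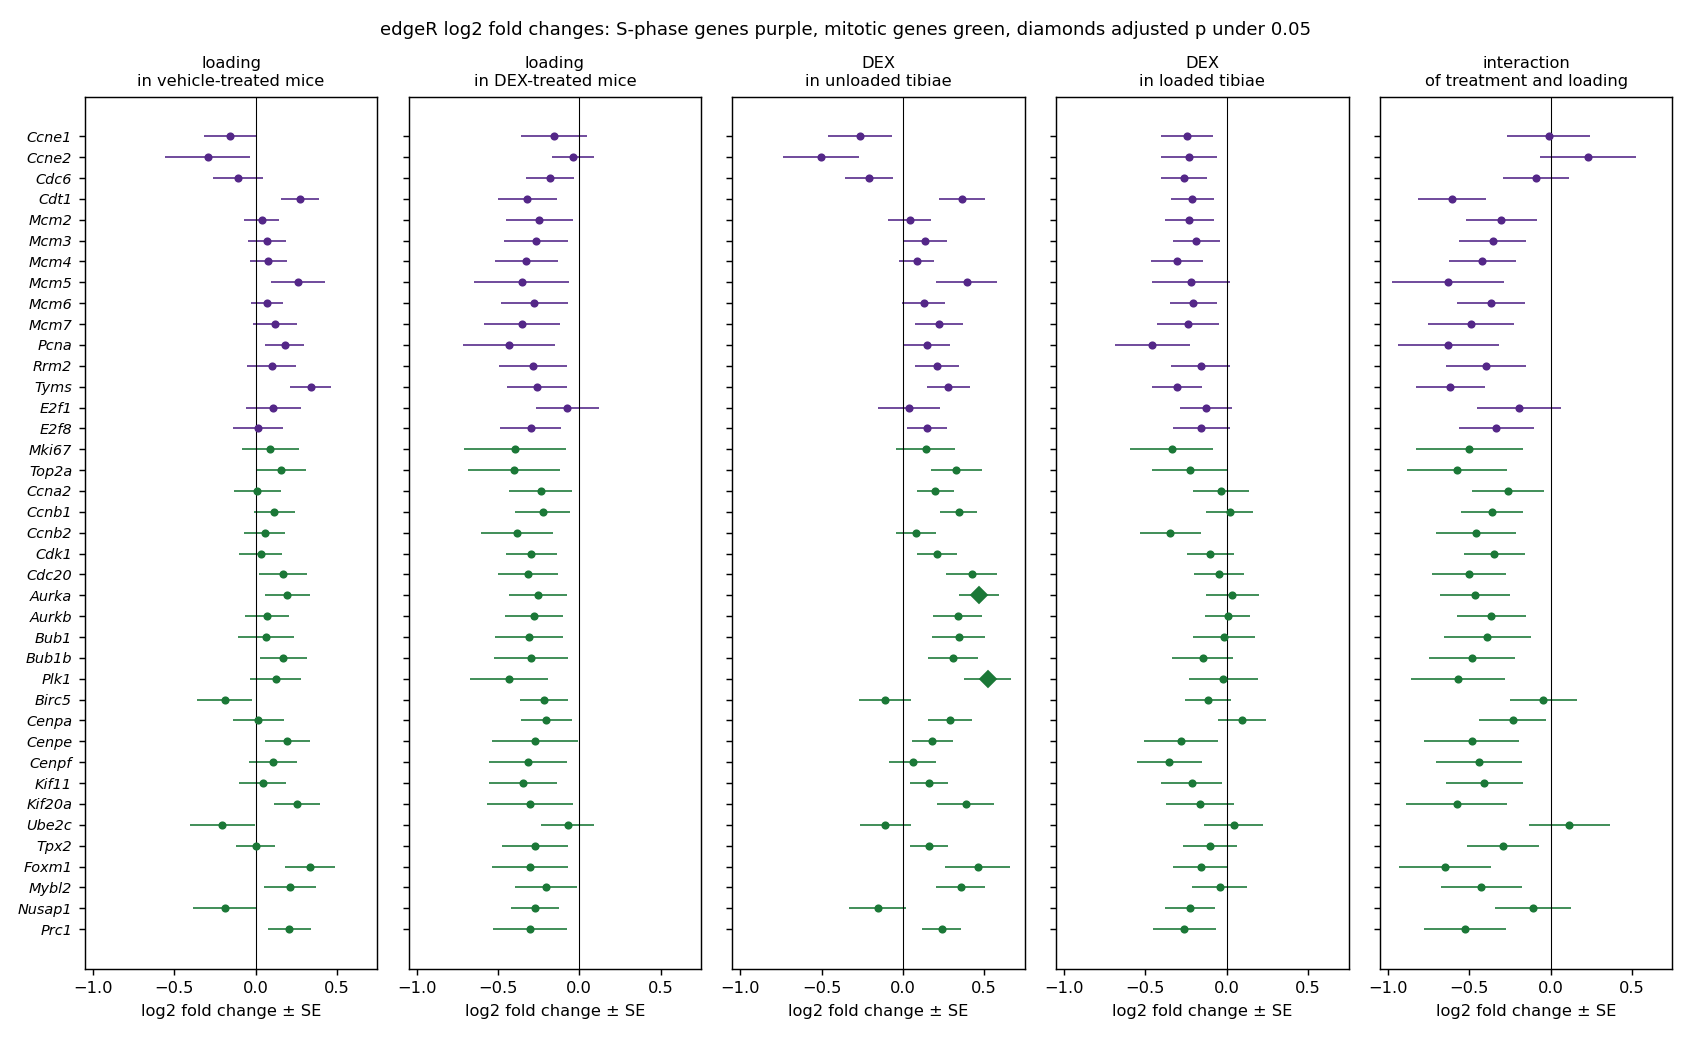
Log2 fold change ± SE of each of the 39 genes in the 4 comparisons and in the interaction of treatment and loading, S-phase genes in purple and mitotic genes in green, with diamonds for an adjusted p under 0.05. Diamonds mark only Aurka (0.47) and Plk1 (0.52), in the comparison of DEX with vehicle in unloaded tibiae. All 39 points are below 0 for loading in DEX-treated mice.

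Whether the response to loading differed between treatments was tested by the interaction term over the 19 libraries. It called 0 of 39 members and 0 of 23653 genes (0.0%), with 6 members and 2859 genes at an unadjusted p under 0.05, and DESeq2 called 0 members and 51 genes. The term was negative for 37 of 39 members, with a median of -0.41 beside 0.07 over all genes. Tyms had -0.62 (SE 0.213, adjusted p = 0.366), Cdt1 -0.60 (SE 0.21, adjusted p = 0.368) and Foxm1 -0.65 (SE 0.284, adjusted p = 0.404). With the receptor gene covariate these were -0.49, -0.35 and -0.32. Cdc20, Aurka and Prc1 made up the 6. The positive terms were those of Ccne2 (0.23) and Ube2c (0.12). Both overlap a gene on the opposite strand, Ints8 for Ccne2 and the skeletal muscle troponin gene Tnnc2 for Ube2c. Their values were not whole in 20 and 19 libraries, so reads may be mixed. Members with negative terms shared this, such as Prc1 (20 libraries) and Kif20a (19). The part of shared reads in these terms was not tested. Without loaded DEX replicate 4 the median was -0.29, 36 of 39 were negative and 0 were called, and without loaded vehicle replicate 1 it was -0.50 and 38 of 39 were negative. With the receptor gene covariate it was -0.25 and 38 of 39 were negative. Of all genes, 12.1% reached an unadjusted p under 0.05.

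Of the 17 marker lists, 14 had a median interaction term below 0 and 3 above 0, with 0 genes called. In 5 lists every gene had the same sign, and the others were mixed, such as erythroid (11 of 12 negative, median -0.25) and T cell genes (4 of 8, median 0.03). The 10 skeletal muscle genes had a median of 2.31, all 10 positive and at an unadjusted p under 0.05. Their summed level ran from 19058 to 98298 CPM in vehicle unloaded and 9022 to 47344 CPM in vehicle loaded tibiae, and from 6775 to 49084 CPM in DEX unloaded and 19062 to 55932 CPM in DEX loaded tibiae, with no gene of the list at 0 in all libraries. Medians were -2.28 for 11 chondrocyte genes, -0.70 for 7 osteoclast genes and -0.53 for 8 macrophage genes, all of them negative. Without loaded DEX replicate 4 the chondrocyte, osteoclast and macrophage medians were -2.15, -0.59 and -0.41. The skeletal muscle median was then 2.37 and the erythroid median -0.14. The part of these cells in the members' terms was not tested.

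S-phase and mitotic genes were then set against each other. The S-phase mean minus the mitotic mean of log2 CPM was -0.29, -0.08, -0.21, -0.23 and -0.20 in vehicle unloaded and -0.18, -0.23, -0.29, -0.16 and -0.19 in vehicle loaded tibiae. With DEX it was -0.39, -0.23, -0.41 and -0.41 unloaded and -0.31, -0.21, -0.36, -0.30 and -0.42 loaded. The DEX values lay toward the lower end in both kinds of tibia and overlapped those of vehicle, with group means of -0.20, -0.21, -0.36 and -0.32 in that order and SDs of 0.05 to 0.09. In medians of log2 fold change, S-phase minus mitotic genes gave -0.13 under DEX in unloaded tibiae and -0.12 in loaded tibiae, with no test since it is a score over chosen genes. For loading the difference was -0.02 with vehicle and 0.02 with DEX, and for the interaction 0.07. The difference under DEX in loaded tibiae was -0.11 without loaded DEX replicate 4, -0.06 with the receptor gene covariate and -0.18 to -0.09 without 1 library. That library was low in both lists (5.24 and 5.54), and its own difference of -0.30 lay inside the range of its group. Right and left tibiae come from the same mice, so that the unloaded and loaded comparisons are not independent.

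Other genes of the cell cycle were read from lists that do not contain the members. Under DEX in unloaded tibiae, 1 of 55 other replication genes was called, the phosphatase Cdc25a, which releases CDK2 for S phase and was higher (log2 fold change 0.68, SE 0.151, adjusted p = 0.0234). Of 66 other mitotic genes 2 were called, Zwilch of the kinetochore (0.61, SE 0.147, adjusted p = 0.0302) and the cytokinesis kinesin Kif23 (0.43, SE 0.112, adjusted p = 0.0408), both higher. Of all genes 6.84% were called there. The medians were 0.10 and 0.20 beside 0.03 over all genes. In loaded tibiae, where 21.3% of all genes were called, 0 of 55 replication genes and 1 of 66 mitotic genes was called, the phosphatase Cdc25b, which activates CDK1 and was lower (-0.63, SE 0.184, adjusted p = 0.0299). Cdc25b had -0.52 without loaded DEX replicate 4 (adjusted p = 0.0422), and -0.33 with the receptor gene covariate (adjusted p = 0.70), which left 29 of all genes called in loaded tibiae in place of 4206. Cdc25a, Zwilch and Kif23 were still called in unloaded tibiae with that covariate, in a fit that called 13.5% of all genes. The same fit called 3 of 55 replication genes higher and 2 lower, and 11 of 66 mitotic genes higher and 1 lower. No gene of either list was called for loading or for the interaction.

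Among genes that act at entry into the cycle, 3 of 24 were called with DEX in loaded tibiae, all lower, where 21.3% of all genes were called. Ccnd1, the cyclin D1 that drives cells out of quiescence, had 16.4 ± 3.88 CPM with DEX and 35.5 ± 8.25 CPM with vehicle (log2 fold change -1.07, SE 0.19, adjusted p = 0.00412). Ccnd2 fell by 0.61 on the log2 scale (SE 0.156, adjusted p = 0.0193) and their kinase partner Cdk4 fell by 0.41 (SE 0.119, adjusted p = 0.0296). Without loaded DEX replicate 4 these 3 were still called, at -0.96, -0.52 and -0.39. With the receptor gene covariate none of them was, at -0.49, -0.14 and -0.42 (adjusted p = 0.485, 0.857 and 0.426). In unloaded tibiae, where 6.84% of all genes were called, Cdk6, the other kinase partner, was the 1 gene of the 24 called. It stood at 164.6 ± 30.8 CPM with DEX and 102.0 ± 14.3 CPM with vehicle (log2 fold change 0.72, SE 0.162, adjusted p = 0.0248). Ccnd1 had -0.37 there (adjusted p = 0.0887). With the receptor gene covariate 3 of the 24 were called in unloaded tibiae, all higher, beside 13.5% of all genes, and Cdk6 had 0.89 (adjusted p = 0.00534).

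Among 20 CDK inhibitors and p53 targets, of which 19 were tested, Cdkn1a, the p21 inhibitor, was called lower with DEX in both kinds of tibia. It was the 1 call of 19 in unloaded and 1 of 3 in loaded tibiae, beside 6.84% and 21.3% of all genes. It stood at 20.7 ± 1.52 CPM with DEX and 40.6 ± 15.2 CPM with vehicle in unloaded tibiae (-0.96, SE 0.239, adjusted p = 0.0349), and at 17.3 ± 4.24 and 32.5 ± 7.32 CPM in loaded tibiae (-0.87, SE 0.192, adjusted p = 0.0112). Cdkn1c, the p57 inhibitor, fell by 0.80 (SE 0.184, adjusted p = 0.013) and the stress gene Gadd45g fell by 0.69 (SE 0.214, adjusted p = 0.0376) in loaded tibiae. Without loaded DEX replicate 4, Cdkn1a and Cdkn1c were called there at -0.90 and -0.82, and Gadd45g was not (-0.66, adjusted p = 0.0692). With the receptor gene covariate Cdkn1a was called in neither kind of tibia, at -0.59 unloaded (adjusted p = 0.0797) and -0.93 loaded (0.243), nor were Cdkn1c (-0.50, adjusted p = 0.554) and Gadd45g (-0.05, adjusted p = 0.971) in loaded tibiae. Replication-dependent histone genes, which are transcribed in S phase and nearly identical in sequence, gave 0 calls of 64 tested in each of the 4 comparisons, with medians of 0.23 under DEX in unloaded and -0.32 in loaded tibiae, the latter -0.12 without loaded DEX replicate 4. With the receptor gene covariate 11 of 64 histone genes were called higher and 4 lower in unloaded tibiae, beside 13.5% of all genes, and 0 in loaded tibiae. Reads shared between nearly identical copies make single histone genes uncertain.

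Markers of marrow lineages that hold dividing cells also differed between DEX and vehicle. Of all genes, 6.84% were called in unloaded and 21.3% in loaded tibiae. In unloaded tibiae 7 of 8 neutrophil progenitor genes were called higher (median log2 fold change 1.10) and 8 of 12 tested B progenitor genes were called lower (median -1.33). In loaded tibiae these were 6 of 8 (0.94) and 10 of 12 (-1.76), and 0 of 12 erythroid genes were called in either. The summed neutrophil progenitor markers ran from 1109 to 1601 CPM in vehicle unloaded and 2029 to 3522 CPM in DEX unloaded tibiae, and from 1094 to 1482 CPM and 1447 to 3491 CPM in loaded tibiae. The summed B progenitor markers ran from 291.7 to 424.9 CPM in vehicle unloaded and 87.85 to 255.5 CPM in DEX unloaded tibiae, and from 272.9 to 483.7 CPM and 74.22 to 206.4 CPM in loaded tibiae. Erythroid markers summed to 7272 to 12438 CPM in vehicle unloaded and 4089 to 12090 CPM in DEX unloaded tibiae. None of the genes on these 3 lists was at 0 in all libraries. Osteoblast markers, led by Col1a1, the main bone collagen (mean 34505 CPM), were called lower for 5 of 10 genes in unloaded tibiae (median -1.56) and for 8 of 10 in loaded tibiae (median -1.86). Chondrocyte markers were called lower for 1 of 10 tested in unloaded and 10 of 11 in loaded tibiae (medians -0.25 and -3.23). Skeletal muscle genes had a median of -1.75 in unloaded tibiae, all 10 below 0 and 1 called lower, and of 0.50 in loaded tibiae, all 10 above 0 and 1 called higher. Without loaded DEX replicate 4, calls in loaded tibiae were 7 of 8 neutrophil progenitor (1.05), 10 of 12 B progenitor (-1.79), 0 of 12 erythroid, 8 of 10 osteoblast (-1.71) and 9 of 11 chondrocyte genes (-3.12), beside 15.2% of all genes. With the receptor gene covariate they were 2 B progenitor genes and 0 of the other 4 lists, beside 0.147% of all genes. The medians were 1.08, -1.77, -0.20, -1.66 and -3.30 in the same order. Skeletal muscle genes had 0 calls in loaded tibiae in both fits, with medians of 0.52 (10 of 10 above 0) and 0.65 (8 of 10). In unloaded tibiae the covariate gave 8 neutrophil progenitor, 7 B progenitor, 1 erythroid, 5 osteoblast and 1 chondrocyte gene called, beside 13.5% of all genes. The summed level of the 24 mitotic genes was 3223 to 4574 CPM in vehicle unloaded and 4130 to 4739 CPM in DEX unloaded tibiae, and 3062 to 5046 CPM and 1999 to 4299 CPM in loaded tibiae. The part of these lineages and of muscle in the members' values was not tested.

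**Figure D5:**
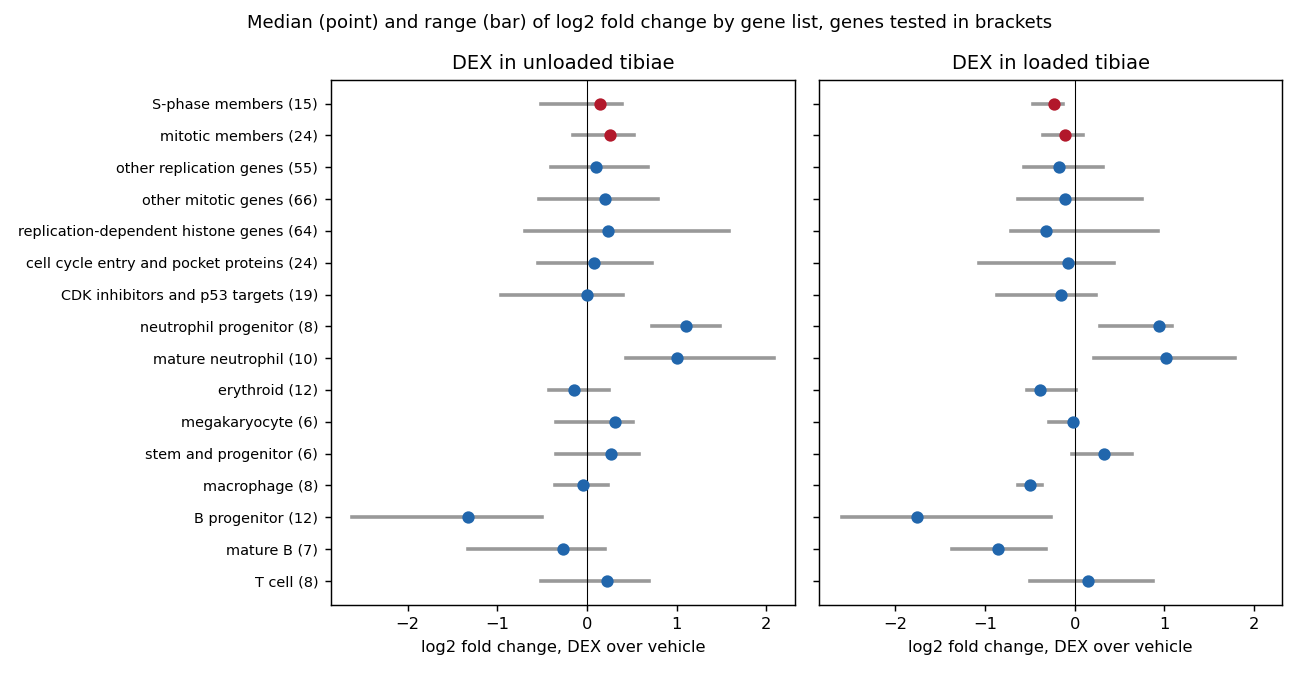
Median (point) and range (bar) of log2 fold change, DEX over vehicle, for the members (red), the other cell cycle lists and marker lists of marrow lineages (blue) in unloaded (left) and loaded (right) tibiae. The members' medians (0.14 and 0.26 unloaded, -0.23 and -0.11 loaded) lie nearer to 0 than those of the neutrophil progenitor (1.10 and 0.94) and B progenitor lists (-1.33 and -1.76).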

How the data were processed

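Total RNA of pulverized tibiae was made into stranded total RNA libraries (SMARTer Pico kit) by the authors. The deposited values are RSEM expected counts per gene, and the submitters' processing notes name RSEM 1.2.28, STAR 2.7.10a and GRCm38. The strand setting of the counting is not given in the sources used here, so 13 members with a gene on the opposite strand may share its reads. Of the members, 14 had values more than 1e-06 from a whole number in at least 1 library, which marks reads shared between genes.

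Expected counts were rounded to whole numbers. Groups were taken from the labels. In each vehicle group 1 column matched the group but no replicate number in the labels, and is called unnumbered. Genes were filtered with filterByExpr, scaled by TMM and tested with edgeR 4.0.16 (quasi-likelihood F test, R 4.3.3) in each pair of groups, or in all 4 for the interaction, with Benjamini-Hochberg adjustment over all genes tested and a threshold of 0.05. SE is the log2 fold change divided by the root of F. Levels per kb use the exon union of each gene in the GENCODE annotation of GRCm38. Log2 CPM used a prior count of 2. The code was tested on simulated data. The labels do not tie libraries to animals, so p-values measure the spread between these libraries.

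Members and gene lists were chosen with earlier results of these data known. Genes named with a fold change were the members called and the 3 with the smallest p in each comparison, up to 3 genes of each other cell cycle list, and, for values in every library, 10 members set by name and Tyms, which was added after its values were seen. Cdc6, Cdc20 and Prc1 and the members read against the majority were named after their values were seen. Alternatives were DESeq2 1.42.0, its size factors, 2 other filters, other library sets, all groups in 1 model, a replicate block, the summed receptor gene level as a covariate and leaving out each library.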

Additional observations from a re-analysis of the deposited data

Results flagged for a closer look

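Single libraries stood apart from the rest of their group, by Dixon's ratio at the 95% level, in 14 of 168 sets of values for members and their mean scores, where chance marks about 1 in 20 sets. Loaded DEX replicate 4 gave 5 of these, all at the low end, with 46.6 CPM of Mcm4 (next lowest 73.9 CPM), 73.9 CPM of Rrm2 (next 113.9 CPM), 787.2 CPM of Mki67 (next 1629 CPM), 67.2 CPM of the cyclin A gene Ccna2 (next 101.2 CPM) and an S-phase mean of 5.24 in log2 CPM. Loaded vehicle replicate 1 gave 3, also at the low end, with 26.6 CPM of Tyms (next 35.4 CPM), 221.9 CPM of the kinetochore gene Cenpf (next 325.7 CPM) and 82.0 CPM of the spindle gene Tpx2 (next 109.9 CPM).

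In unloaded DEX tibiae, replicate 1 was lowest for Pcna at 72.5 CPM (next 90.7 CPM) and highest for Ube2c at 88.9 CPM (next 67.2 CPM). Replicate 5 was lowest for Ccna2 at 101.7 CPM (next 119.7 CPM) and for the centromeric histone gene Cenpa at 60.5 CPM (next 75.7 CPM). Replicate 2 had the highest S-phase minus mitotic mean, at -0.23. In unloaded vehicle tibiae the unnumbered library was highest for Bub1b at 104.9 CPM (next 76.9 CPM).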

How the results depend on the processing

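Of 550 alternative values for 25 results, 503 were counted as unchanged, and no called value reversed. Unchanged meant the same side of the threshold, an equal or similar count of calls, or, where untested, a value within 1 SD. For DEX in unloaded tibiae, Aurka was weaker in 12 of 20 alternatives, Plk1 in 10 of 20 and the members' count of calls in 12 of 21. The S-phase minus mitotic median took the other sign in 8, at -0.0267 to 0.0045. For DEX in unloaded tibiae the 2 calls became 9 at an unadjusted p, 10 with the summed receptor gene level as a covariate (9 higher and Ccne2 lower), and 0 with no filter except 1 count, with all 4 groups in the same model, with a replicate block, and in the same libraries without that block. Leaving out 1 library gave 0 to 2 calls. The adjusted p ran from 0.0146 to 0.249 for Aurka and from 0.00774 to 0.193 for Plk1. For DEX in loaded tibiae 0 calls became 2 with all 4 groups in the same model, and 0 to 1 without 1 library. At an unadjusted p there were 2 calls for loading in vehicle-treated mice and 6 for the interaction. The S-phase minus mitotic median of the interaction moved to -0.0129 without vehicle unloaded replicate 2 (range -0.0129 to 0.0937 without 1 library). The cause of these changes was not tested.

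Over all genes, DEX in loaded tibiae called 4206 genes, 9016 with no filter, 8446 with all 4 groups, 2203 with 10 counts in every library, 2326 with the block, 1120 in its libraries unblocked and 29 with the covariate. The values of that covariate did not overlap between vehicle loaded and DEX loaded tibiae. For unloaded tibiae 1351 became 2411 with DESeq2, 2922 with unloaded DEX replicate 4 put back, 2659 with the covariate, 520 with the block and 566 in its libraries unblocked. Leaving out 1 library gave from 129 genes (without DEX replicate 3) to 1867 (without the unnumbered vehicle library), with 530 without vehicle replicate 5. With no filter the median log2 fold change of all genes shifted to 0.77 and 0.20. Replicate numbers were not taken to pair the samples, since no label says that they mark a mouse. A check used the deviations of log2 CPM from each group's mean, gene by gene. Those of same-numbered unloaded and loaded libraries correlated between -0.301 and 0.246 with vehicle and between 0.03 and 0.357 with DEX. In 2 of 9 the deviations correlated best with those of their own number. For loading in DEX-treated mice the replicate block took members at an unadjusted p under 0.05 from 0 to 7, all lower, and genes from 520 to 1694, with 0 called in either. Loaded DEX replicate 4 had the lowest total (4641437 counts).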
